A study of Mus musculus with 18 samples.

Results

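Genes that carry signals between osteoclasts, the cells that resorb bone, and osteoblasts, the cells that form it, were followed in mouse bone marrow-derived macrophages during exposure to RANKL, the cytokine that drives macrophages towards osteoclasts. The members were Efnb2, Ephb4, Sema4d, Plxnb1, Sema3a, Nrp1, Sphk1, Cthrc1, Wnt10b and Slit3. They were found by gene symbol in the deposited count table, where each of the 10 symbols stood on 1 row out of 34745 genes. All 10 passed the filter on low counts, which left 14241 genes for testing. Macrophages were grown with M-CSF, the macrophage growth factor, from the marrow of Zmat1 knockout (KO) mice and of wild-type (WT) littermates. The knockout was carried in all tissues, on a C57BL/6 background, and the mice were 4 to 8 weeks old. RANKL was given for 0, 1 or 3 days and every group received M-CSF, so day 0 stands for macrophages before RANKL. No group was cultured for 1 or 3 days without RANKL, so RANKL and time in culture cannot be told apart. The 18 libraries formed 6 groups of 3, named here by label and day, and the labels do not say whether the libraries of a group came from separate mice. P-values therefore measure the spread between libraries.

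Bone resorption and bone formation are tied together in time and place, a process called coupling, and part of it runs through molecules that osteoclasts release or display. Ephrin-B2, made by Efnb2, sits on the osteoclast membrane and signals in both directions with its receptor EphB4 on osteoblasts. Semaphorin 4D from osteoclasts restrains bone formation through the receptor plexin-B1, whereas semaphorin 3A, which binds neuropilin-1, protects bone. Sphingosine kinase 1 makes the lipid signal sphingosine 1-phosphate, and Cthrc1, Wnt10b and Slit3 are secreted proteins that act on cells of the osteoblast line.

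Total counts ran from 13789775 to 17559958 per library. Levels are given as CPM, the usual per-library count rate, after TMM scaling of library sizes. Zmat1, the targeted gene, did not follow the labels. It had 49 to 99 counts in the libraries labelled KO and 32 to 91 in those labelled WT, and the log2 fold change between the labels over all days was 0.42 (adjusted p = 0.354, edgeR quasi-likelihood test). Groups are therefore called the libraries labelled KO or WT. In 5 libraries the title carried a double hyphen (WT day 0 library 1, 1 of both WT day 1 libraries that carry number 1, KO day 0 library 2 and KO day 1 libraries 1 and 2), and all day 3 titles carried a single hyphen.

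The markers of the cultured cells were present. The summed level of 8 macrophage markers (Itgam stands on 2 rows) was 10860 to 13960 CPM in WT-labelled and 9760 to 10950 CPM in KO-labelled libraries on day 0, and 3189 to 4515 and 3222 to 3941 CPM on day 3. The sum of 10 osteoclast markers went from 224 to 649 CPM on day 0 to 16040 to 23380 CPM on day 3 in the WT-labelled libraries. In the KO-labelled libraries it went from 671 to 988 CPM to 8293 to 17730 CPM. Of these 10 markers, 9 were called higher on day 3 under either label.

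Markers of osteoblasts and stromal cells were also counted, and they changed over the days as well. The sum of 15 such genes was 100, 550 and 4916 CPM in WT day 0 libraries 1 to 3, and 3709, 1138 and 3851 CPM in KO day 0 libraries 1 to 3. On day 1 the sums were 2886 CPM in the single-hyphen WT library numbered 1, 257 CPM in the double-hyphen one and 2528 CPM in WT library 2, against 3729, 2524 and 8508 CPM in the KO-labelled libraries. On day 3 they reached 11300 to 14530 CPM in the WT-labelled and 21030 to 30270 CPM in the KO-labelled libraries, which did not overlap. Of the 14 tested genes of this list, 9 were called higher on day 3 under the WT label and 12 under the KO label. The collagen genes Col1a1 and Col1a2 made up most of the sum, with Col1a1 at 29.2 to 2011 CPM in the WT day 0 and 5096 to 6285 CPM in the WT day 3 libraries. Bglap, the osteocalcin gene of mature osteoblasts, had at most 2 counts in any library. Other osteoblast genes of the list were counted at higher levels. Over all libraries Alpl ran from 1.40 to 127 CPM, Sp7 from 0.0824 to 22.6 CPM and Runx2 from 3.33 to 31.4 CPM. In bulk RNA, more cells of a type and more RNA per cell cannot be told apart.

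From day 0 to day 3 of RANKL, 7 of the 10 coupling genes were called in the WT-labelled libraries (adjusted p under 0.05), where 50.2% of all tested genes were called. Efnb2, Plxnb1, Sema3a, Sphk1, Cthrc1 and Wnt10b were higher, in a comparison where 23.7% of genes were called higher. Nrp1 was lower, as were 26.5% of genes. In the KO-labelled libraries 8 of 10 were called against 42.5% of all genes: the same 6 and Ephb4 higher (20.2% of genes) and Nrp1 lower (22.3%). The median log2 fold change of the 10 genes was 2.11 under the WT label and 2.16 under the KO label, and that of all tested genes was -0.03 and -0.01. It was 2.24 and 3.11 for the osteoblast or stromal markers, 7.30 and 6.25 for the osteoclast markers and -1.98 and -1.42 for the macrophage markers. The 3 libraries of day 3 did not overlap the 3 of day 0 for 8 of 10 members under either label, against 62.5% of all genes under the WT label and 58.8% under the KO label. Sema4d and Slit3 were called under neither.

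**Figure D1:**
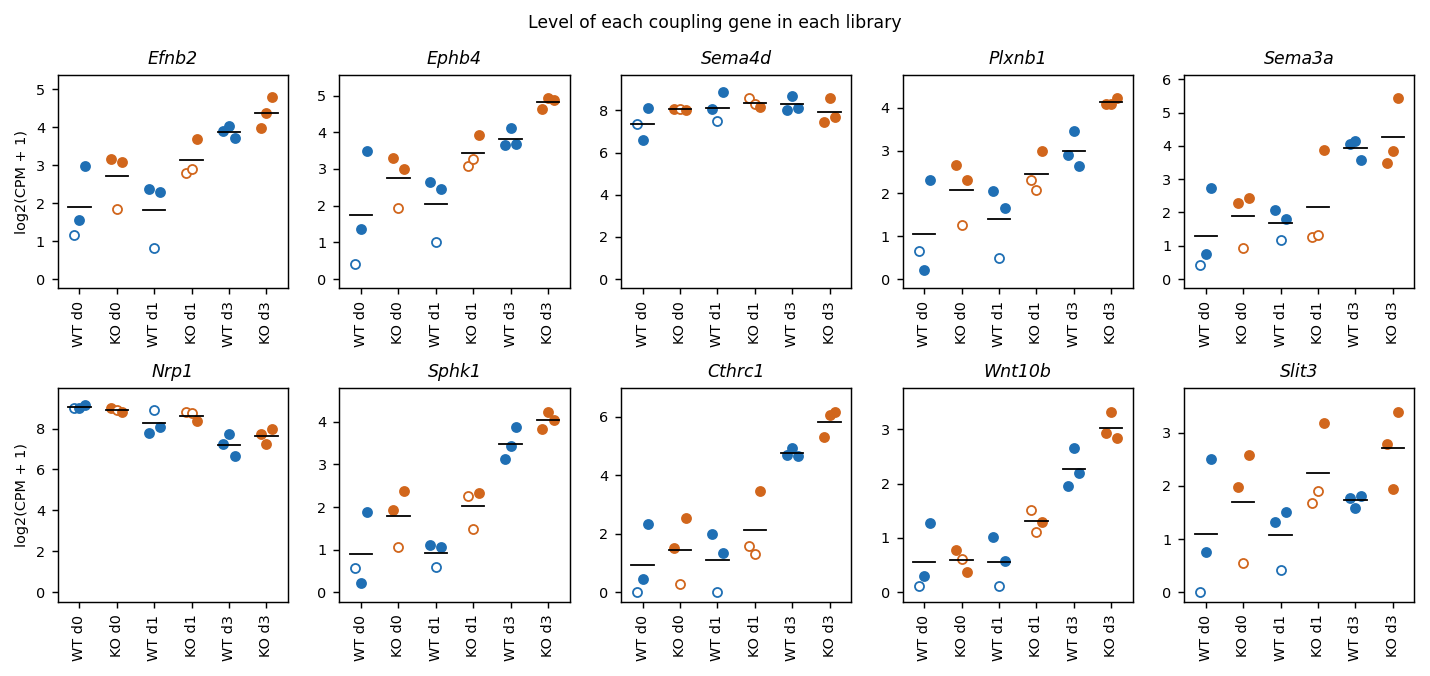
Level of each coupling gene as log2(CPM + 1) in every library, by label and day. Each point is 1 library, open points are libraries with a double hyphen in the title, and bars are group means of the log values (n = 3). Efnb2, Ephb4, Plxnb1, Sema3a, Sphk1, Cthrc1 and Wnt10b were higher in every day 3 library than in every day 0 library of the same label, Nrp1 was lower, and Sema4d and Slit3 overlapped.

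Efnb2 (ENSMUSG00000001300, GRCm38 chromosome 8, 8617434 to 8660773, minus strand) encodes the membrane ligand ephrin-B2. It measured 1.24, 1.94 and 6.79 CPM in WT day 0 libraries 1 to 3 and 13.8, 15.2 and 12.1 CPM in WT day 3 libraries 1 to 3. In the KO-labelled libraries the values were 7.92, 2.62 and 7.50 CPM on day 0 and 14.8, 19.8 and 26.6 CPM on day 3. The day 3 libraries lay above all day 0 libraries under both labels, and WT day 0 library 3 was the highest of the WT day 0 libraries. Its log2 fold change was 2.03 under the WT label (SE 0.632, adjusted p = 0.0157) and 1.76 under the KO label (SE 0.617, adjusted p = 0.0329, edgeR quasi-likelihood test with Benjamini-Hochberg adjustment, as for every adjusted p of a gene here).

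Ephb4 (ENSMUSG00000029710, chromosome 5, 137350109 to 137378669, plus strand), which encodes the receptor of ephrin-B2, spread widely on day 0. It was counted at 0.330, 1.55 and 10.3 CPM in WT day 0 libraries 1 to 3 and at 11.6, 16.2 and 11.9 CPM on day 3. WT day 0 library 3 thus came within a small step of WT day 3 libraries 1 and 3. The change of 1.69 under the WT label did not pass the test (SE 0.788, adjusted p = 0.0858). Under the KO label Ephb4 went from 8.91, 2.85 and 7.06 CPM to 23.8, 29.6 and 28.3 CPM, and the rise of 2.12 passed (SE 0.786, adjusted p = 0.0420).

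Sema4d (ENSMUSG00000021451, chromosome 13, 51701246 to 51793747, minus strand), the osteoclast semaphorin, was abundant before RANKL. It stood at 160, 94.2 and 276 CPM in WT day 0 libraries 1 to 3 and at 263, 406 and 280 CPM on day 3. In the KO-labelled libraries it was 268, 268 and 256 CPM on day 0 and 171, 386 and 204 CPM on day 3. The days overlapped under both labels, and WT day 0 library 2 was the lowest of all. The log2 fold change was 0.84 under the WT label (95% interval -0.01 to 1.69, adjusted p = 0.0906) and -0.06 under the KO label (-0.90 to 0.79, adjusted p = 0.919).

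Plxnb1 (ENSMUSG00000053646, chromosome 9, 109095389 to 109119917, plus strand), encoding the semaphorin 4D receptor plexin-B1, was low on day 0, at 0.577, 0.155 and 3.93 CPM in the WT-labelled and 5.35, 1.38 and 4.004 CPM in the KO-labelled libraries. On day 3 it reached 6.50, 9.997 and 5.22 CPM and 16.02, 15.9 and 17.7 CPM. The log2 fold change was 2.19 under the WT label (SE 0.816, adjusted p = 0.0368) and 2.20 under the KO label (SE 0.789, adjusted p = 0.0361). Within the single-hyphen libraries these changes were 1.87 for both labels and did not pass (adjusted p = 0.0621 and 0.0592).

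Sema3a (ENSMUSG00000028883, chromosome 5, 13125414 to 13602565, plus strand), the secreted semaphorin, was counted at 0.330, 0.697 and 5.72 CPM on day 0 and 15.7, 16.6 and 10.9 CPM on day 3 in the WT-labelled libraries. The KO-labelled values were 3.85, 0.923 and 4.37 CPM and 10.2, 13.4 and 42.4 CPM, with library 3 far above the others on day 3. The rise was 2.66 on the log2 scale under the WT label (SE 1.02, adjusted p = 0.0418) and 2.85 under the KO label (SE 1.01, adjusted p = 0.0351).

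Nrp1 (ENSMUSG00000025810, chromosome 8, 128359073 to 128505462, plus strand), which encodes the semaphorin 3 co-receptor neuropilin-1, was the member that fell. It measured 513, 512 and 558 CPM in WT day 0 libraries and 150, 209 and 101 CPM in WT day 3 libraries 1 to 3. In the KO-labelled libraries it went from 508, 486 and 443 CPM to 214, 152 and 248 CPM. The day 0 libraries of both labels lay close together and above every day 3 library. Nrp1 fell by 1.78 on the log2 scale under the WT label (SE 0.292, adjusted p = 0.000237) and by 1.23 under the KO label (SE 0.287, adjusted p = 0.00395).

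Sphk1 (ENSMUSG00000061878, chromosome 11, 116530925 to 116536674, plus strand), encoding sphingosine kinase 1, was 0.495, 0.155 and 2.72 CPM on day 0 and 7.74, 9.76 and 13.6 CPM on day 3 under the WT label. Under the KO label it was 2.78, 1.08 and 4.22 CPM and 13.2, 17.9 and 15.3 CPM. Every day 3 library exceeded every day 0 library by a wide margin. The rise was 3.18 (SE 0.705, adjusted p = 0.00208) under the WT label and 2.52 (SE 0.667, adjusted p = 0.00818) under the KO label.

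Cthrc1 (ENSMUSG00000054196, chromosome 15, 39076932 to 39087121, plus strand), a secreted glycoprotein that osteoclasts release during resorption, changed by the largest fold of the 10. It was at 0, 0.387 and 4.08 CPM in WT day 0 libraries 1 to 3, with no count in library 1, and at 25.03, 29.6 and 24.1 CPM on day 3. In the KO-labelled libraries it went from 1.85, 0.231 and 4.80 CPM to 38.5, 65.5 and 70.98 CPM. On day 0 the libraries differed widely among themselves, whereas the 3 WT day 3 libraries lay within a narrow range. The log2 fold change was 4.10 under the WT label (SE 1.18, adjusted p = 0.0104) and 4.66 under the KO label (SE 1.18, adjusted p = 0.00635), which correspond to 17.1-fold and 25.2-fold. Leaving out WT day 0 library 3 moved the WT value to 7.01, and the other single WT-labelled libraries left it at 3.57 to 4.16.

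Wnt10b (ENSMUSG00000022996, chromosome 15, 98771753 to 98778150, minus strand), a Wnt ligand that favours bone formation, was near the limit of counting before RANKL, with 1 to 20 counts per library on day 0. Its level was 0.0824, 0.232 and 1.43 CPM in the WT-labelled and 0.713, 0.538 and 0.291 CPM in the KO-labelled libraries. On day 3 it was 2.89, 5.29 and 3.59 CPM and 6.61, 8.99 and 6.12 CPM. The day 3 libraries lay above all day 0 libraries, and the log2 fold change was 2.71 under the WT label (SE 0.735, adjusted p = 0.00744) and 3.79 under the KO label (SE 0.760, adjusted p = 0.00150).

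Slit3 (ENSMUSG00000056427, chromosome 11, 35121224 to 35708507, plus strand), the secreted guidance protein, was 0, 0.697 and 4.65 CPM on day 0 and 2.43, 1.999 and 2.52 CPM on day 3 under the WT label. Under the KO label it was 2.92, 0.462 and 4.95 CPM and 5.90, 2.81 and 9.46 CPM. Days 0 and 3 overlapped under both labels. The change was 0.36 under the WT label (95% interval -1.83 to 2.56, adjusted p = 0.784) and 1.12 under the KO label (-1.03 to 3.27, adjusted p = 0.386).

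**Figure D2:**
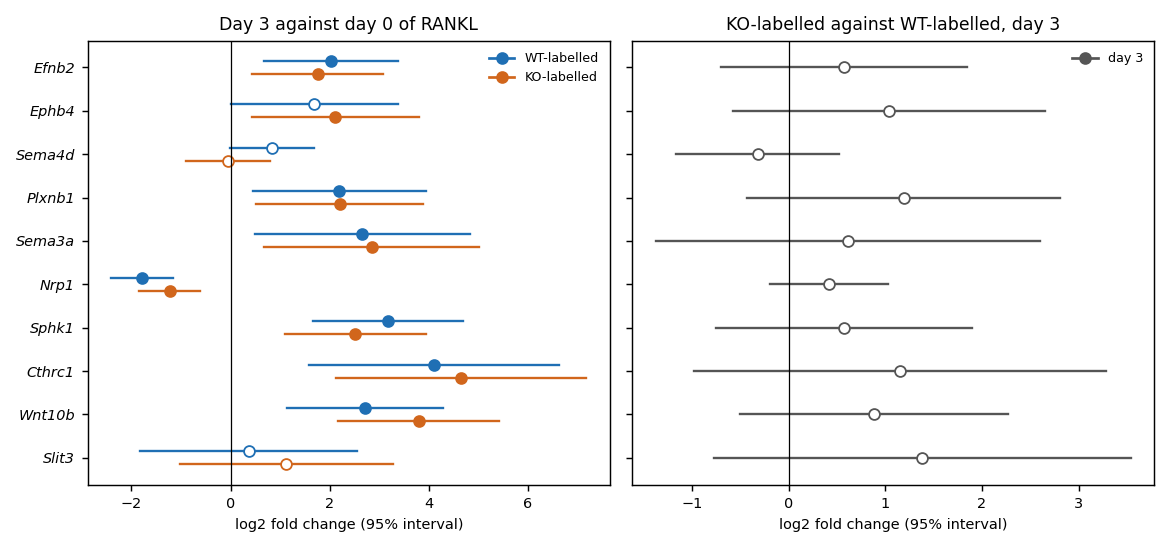
Log2 fold change of each coupling gene with its 95% interval, for day 3 against day 0 of RANKL under each label (left) and for KO-labelled against WT-labelled libraries on day 3 (right). Filled points passed an adjusted p of 0.05 and open points did not: 7 were filled under the WT label, 8 under the KO label and 0 between the labels.

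In the WT day 0 and day 1 libraries, most low-level members were high or low where the stromal markers were. Among the WT day 0 libraries all 10 members were highest in library 3, which had the highest stromal sum, and among the WT day 1 libraries 9 of 10 were lowest in the double-hyphen one, which had the lowest; Nrp1 was highest there. The order was not the same throughout. Plxnb1 and Sphk1 were lower in WT day 0 library 2 than in library 1, where the stromal sum was lower, and among the KO day 3 libraries 4 members were highest in library 2, which had the highest sum, and 6 in library 3. Ephb4 per 1000 CPM of stromal markers was 2.10 to 3.30 CPM in WT day 0 and 0.985 to 1.11 CPM in WT day 3 libraries, lower on day 3 although its own level was higher. Wnt10b per 1000 CPM of stromal markers was 0.291 to 0.824 CPM on day 0 and 0.256 to 0.364 CPM on day 3 under the WT label. Cthrc1 was higher on day 3 on this scale too. Under the WT label it was at 0 to 0.829 CPM per 1000 on day 0 and 2.00 to 2.22 CPM per 1000 on day 3. Under the KO label it was at 0.203 to 1.25 and 1.83 to 2.39 CPM per 1000. No other member was higher on day 3 without overlap under either label. Sphk1 overlapped under the WT label (0.282 to 4.95 on day 0 and 0.672 to 1.125 on day 3). Under the KO label it was lower on day 3 (0.750 to 1.10 on day 0 and 0.517 to 0.626 on day 3). So were Efnb2 (1.95 to 2.30 and 0.653 to 0.895) and Plxnb1 (1.04 to 1.44 and 0.526 to 0.762). The part of the stromal markers in the changes of the members was not tested.

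Without WT day 0 libraries 1 and 2 and the double-hyphen WT day 1 library, the 3 libraries with the lowest stromal sums, 2 of 10 members were called between days 3 and 0 under the WT label, against 29.3% of all genes in that fit. Nrp1 fell by 1.83 (adjusted p = 0.00158) and Sphk1 rose by 1.96 (adjusted p = 0.0404), whereas Cthrc1 was at 2.72 (adjusted p = 0.101), Wnt10b at 1.49 (adjusted p = 0.0632) and Efnb2 at 1.05 (adjusted p = 0.188). This leaves 1 WT day 0 library, which is assumed to vary like the other groups. Without WT day 0 library 1 or without library 2 the count was 4 (Nrp1, Sphk1, Cthrc1 and Wnt10b), against 41.3% and 40.6% of all genes, and without library 3 it was 9, against 53.6%. Without library 3 the log2 fold changes moved to 5.0 for Sphk1, 4.80 for Sema3a, 4.58 for Wnt10b, 4.32 for Plxnb1, 3.13 for Efnb2 and 3.82 for Ephb4, and Ephb4 and Sema4d (1.34) then passed. Under the KO label leaving out KO day 0 library 2, KO day 0 library 3 or KO day 3 library 3 gave 4, the same 4 genes each time (33.8%, 34.2% and 36.6% of all genes), and leaving out KO day 3 library 2 gave 5 (31.3%). Cthrc1 was at 5.81 without KO day 0 library 3, and Sema3a at 1.95 without KO day 3 library 3 (adjusted p = 0.153). Within the single-hyphen libraries, 6 members were called under the WT label and 7 under the KO label, against 48.7% and 41.9% of all genes.

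**Figure D3:**
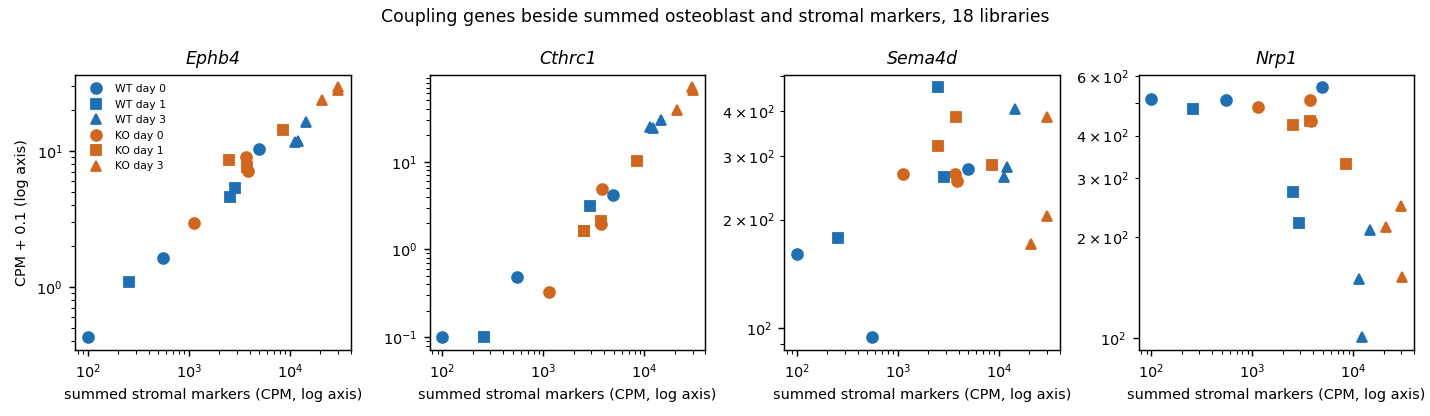
Levels of Ephb4, Cthrc1, Sema4d and Nrp1 (CPM + 0.1, log axis) against the summed level of 15 osteoblast and stromal markers (CPM, log axis) in each of 18 libraries, with colour for the label and shape for the day. Ephb4 and Cthrc1 were higher where the stromal sum, which ran from 100 to 30270 CPM, was higher, and Nrp1 was low in the day 3 libraries. Sema4d was at 94.2 to 178 CPM in the 3 libraries with the lowest stromal sums and at 171 to 467 CPM in the others.

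Stretches of 250 bases before an annotated start (RefSeq, GRCm38.p6) were found for 9 members, and 3 are printed because these genes rose together and their stretch held a short motif searched on both strands: GGAATG, bound by TEAD factors (printed in capitals in Efnb2 and Plxnb1), or TGANTCA, bound by AP-1 (in capitals in Sphk1). GGAATG was in 12.6% and TGANTCA in 6.7% of 32851 such stretches. These are shares of single stretches, whereas Sphk1 was searched in 5. TGGAAA, the NFAT core, was in 18.6% of them and in those of Sema3a and of Sphk1. The Efnb2 stretch is chr8:8661243-8661492 on the minus strand, that of Plxnb1 chr9:109095186-109095435 and that of Sphk1, 1 of its 5 starts, chr11:116531661-116531910, both on the plus strand. A match is a run of letters and not a measured site.
Efnb2: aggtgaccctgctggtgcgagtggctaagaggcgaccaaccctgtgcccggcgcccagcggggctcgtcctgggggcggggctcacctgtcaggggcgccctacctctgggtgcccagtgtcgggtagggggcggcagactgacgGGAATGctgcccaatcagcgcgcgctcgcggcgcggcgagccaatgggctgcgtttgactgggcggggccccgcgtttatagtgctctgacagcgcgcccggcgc
Plxnb1: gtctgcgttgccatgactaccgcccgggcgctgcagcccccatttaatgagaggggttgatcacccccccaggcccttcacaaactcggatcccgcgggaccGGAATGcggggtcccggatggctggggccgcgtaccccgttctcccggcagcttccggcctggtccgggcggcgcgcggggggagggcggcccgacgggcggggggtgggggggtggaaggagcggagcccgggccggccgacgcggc
Sphk1: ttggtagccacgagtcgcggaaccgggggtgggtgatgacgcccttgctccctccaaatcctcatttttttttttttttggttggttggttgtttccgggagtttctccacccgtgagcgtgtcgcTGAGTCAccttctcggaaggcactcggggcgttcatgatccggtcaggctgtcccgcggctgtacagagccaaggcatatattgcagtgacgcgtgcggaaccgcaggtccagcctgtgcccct
The motif lies 105 bases before the start in Efnb2, 148 in Plxnb1 and 124 in Sphk1. None of the 3 motifs was in the stretches of Ephb4, Nrp1, Slit3 or Wnt10b, and TGANTCA was in 1 of 3 stretches of Sema4d. Another Sphk1 stretch held GGAATG, 210 bases before its start. The same TGANTCA match of Sphk1 also lay in an overlapping stretch, 50 bases before its start.

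Levels were compared between genes as CPM per kilobase of merged exons (GENCODE). On WT day 0, Nrp1 (53.9 ± 2.65, SD, n = 3) and Sema4d (23.01 ± 11.97) were far above the rest, and the highest of the other 8, Cthrc1, had a mean of 0.934 per kilobase. Those 8 overlapped their neighbours in the order. On WT day 3 the order was Sema4d (41.2 ± 10.2), then Cthrc1 (16.5 ± 1.83) and Nrp1 (15.7 ± 5.55), which overlapped each other, then Ephb4 (2.85 ± 0.551), Sphk1 (2.17 ± 0.621) and Efnb2 (1.997 ± 0.231), each overlapping the next. Wnt10b, Sema3a and Plxnb1 followed at 1.15, 1.04 and 0.755 per kilobase and overlapped in turn, and Slit3 was lowest (0.382 ± 0.0460). On KO day 3 Cthrc1 (36.6 ± 10.9) and Sema4d (33.05 ± 15.1) overlapped at the top, followed by Nrp1 (20.9 ± 4.97). Between days 0 and 3 Cthrc1 thus moved from the range of the weakly expressed members to that of Nrp1.

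The first day of RANKL was compared with day 0 to see how early the genes changed. No member was called under either label, where 2.35% of all genes were called under the WT label and 0.0211% under the KO label. The threshold of the study was an unadjusted p under 0.05 with a fold above 1.5 or below 0.66. There 1 member passed under the WT label (11.2% of all genes) and 0 under the KO label (5.05%). DESeq2 called 0 under either, against 8.57% and 1.19% of all genes. The member that passed was Nrp1, at 220, 480 and 273 CPM in the WT day 1 libraries (number 1 with a single hyphen, number 1 with a double hyphen, number 2), all below the WT day 0 libraries (log2 fold change -0.70, adjusted p = 0.178). Leaving out the double-hyphen library brought Nrp1 past the test. Wnt10b under the KO label was 1.86, 1.15 and 1.46 CPM on day 1, above all KO day 0 libraries (1.52, adjusted p = 0.507).

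Between day 1 and day 3, 5 members were called under the WT label, against 32.0% of all genes, and 4 under the KO label, against 28.0%. Sphk1 rose by 3.47 (SE 0.716, adjusted p = 0.00265) under the WT and by 2.27 (SE 0.658, adjusted p = 0.0198) under the KO label. Cthrc1 rose by 4.06 and 3.68 (adjusted p = 0.0169 and 0.0240) and Wnt10b by 2.82 and 2.27 (adjusted p = 0.00996 and 0.0242). Nrp1 fell by 1.08 and by 0.97 (adjusted p = 0.0110 and 0.0215), and Efnb2 passed under the WT label (2.21, adjusted p = 0.0168) and not under the KO label (1.33, adjusted p = 0.114). Whether that change differs between the labels was not tested. The day 3 and day 1 libraries did not overlap for 9 members under the WT label (50.9% of all genes) and for 7 under the KO label (50.7%). Under the KO label no member was called in the single-hyphen libraries alone, after adding title style to the model, or when KO day 1 library 1, KO day 1 library 2 or KO day 3 library 2 was left out. The share of all genes called was 4.63%, 19.1%, 16.3%, 16.1% and 15.8% in these fits. Under the WT label 3 were called without the double-hyphen library, against 20.9% of all genes. Cthrc1 was at 5.03 and Wnt10b at 3.71 without the single-hyphen WT day 1 library numbered 1, and Cthrc1 at 5.05 under the KO label without KO day 1 library 3. These fits have no replicate block. With the replicate number as a block within the label, 5 members were called under the KO label, Sema3a being added, against 28.2% of all genes.

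The comparison of the labels asked whether the coupling genes differ between the libraries labelled KO and WT. Because the counts of Zmat1 did not follow the labels, this comparison cannot tell what loss of Zmat1 does. No member was called on day 0, 1 or 3, where 0.119%, 0.112% and 0.140% of all genes were called (edgeR). The DESeq2 Wald test called 0 members on each day, against 0.449%, 0.534% and 1.65% of all genes. Other settings gave 1 call on each day: Sphk1 on day 0 without WT day 0 library 3, Efnb2 on day 1 with title style in the model, and Ephb4 on day 3 in a fit of the compared groups alone. In these fits 1.38%, 0.218% and 0.927% of all genes were called. On day 3 Ephb4, Plxnb1, Cthrc1, Wnt10b and Slit3 were higher in all 3 KO-labelled libraries than in all 3 WT-labelled ones, 5 of 10 members against 29.2% of all genes. Cthrc1 was 58.3 ± 17.4 CPM in the KO-labelled and 26.2 ± 2.92 CPM in the WT-labelled libraries on day 3 (SD, n = 3 each), a log2 difference of 1.15 (95% interval -0.98 to 3.28, adjusted p = 0.709). Plxnb1 was 16.5 ± 0.988 and 7.24 ± 2.47 CPM (1.19, -0.42 to 2.81, adjusted p = 0.606), and Ephb4 was 27.2 ± 3.01 and 13.2 ± 2.56 CPM (1.04, -0.57 to 2.65, adjusted p = 0.651). Wnt10b (0.88, adjusted p = 0.656) and Slit3 (1.38, adjusted p = 0.652) lay in the same direction. The intervals include no difference as well as differences of more than 4-fold. The stromal sum of the same KO-labelled libraries was also above that of the WT-labelled ones. So were the sums of the endothelial markers (33.8 to 104 against 12.0 to 24.0 CPM), the neutrophil markers (97.6 to 1147 against 35.8 to 66.9 CPM), the B cell markers (31.1 to 41.9 against 17.0 to 21.5 CPM), the T or NK cell markers (0.612 to 1.87 against 0.118 to 0.310 CPM) and the megakaryocyte or platelet markers (50.5 to 91.1 against 25.1 to 34.6 CPM). Their part in these values was not tested.

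On day 1, Efnb2, Ephb4, Plxnb1, Sphk1, Wnt10b and Slit3 did not overlap between the labels and were higher under the KO label, 6 of 10 members against 12.6% of all genes. Sphk1 was 3.78, 1.79 and 4.04 CPM in KO day 1 libraries and 1.14, 0.500 and 1.10 CPM in WT day 1 libraries (log2 difference 1.78, adjusted p = 0.577). Efnb2 was 5.96, 6.45 and 11.96 CPM and 4.15, 0.750 and 3.86 CPM (1.46, adjusted p = 0.608). At the unadjusted threshold these 2 genes passed on day 1, against 4.70% of all genes, and no member passed on day 0 or 3 (3.95% and 5.69%). The sum of endothelial markers did not overlap on day 1 either (68.8 to 102 CPM under the KO and 18.6 to 55.1 CPM under the WT label), nor did that of T or NK cell markers (1.09 to 2.30 against 0.207 to 0.667 CPM). The stromal sums overlapped (2524 to 8508 CPM under the KO and 257 to 2886 CPM under the WT label). The median log2 difference between the labels on day 1 was 1.42 for the stromal markers and 1.44 for the members. The part of these cell type markers in the values of the members was not tested. On day 0 only Nrp1 did not overlap, and it was lower under the KO label, where 10.1% of genes did not overlap.

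Averaged over the days, all 10 members had a positive difference between the KO and WT labels, with a median of 1.00 on the log2 scale against 0.00 for all tested genes. No member was called (1.59% of all genes were). The median was 1.10 for the osteoblast or stromal markers, 1.73 for endothelial, 2.13 for neutrophil, 1.25 for B cell and 1.37 for megakaryocyte or platelet markers. It was -0.10 for macrophage, -0.13 for osteoclast and -0.34 for erythroid markers. At the unadjusted threshold Efnb2 (0.96), Ephb4 (1.05), Plxnb1 (1.21) and Sphk1 (1.20) passed, 4 of 10 against 8.73% of all genes, with adjusted p from 0.117 (Sphk1) to 0.227 (Ephb4). When WT day 0 library 3 was left out, or title style was added to the model, 6 members were called, against 10.7% and 9.68% of all genes in those fits, and DESeq2 called 1, against 6.89%. Without the 3 WT-labelled libraries of lowest stromal sum none was called (2.09% of all genes), and these differences were 0.48, 0.46, 0.63 and 0.70. Whether the change from day 0 to day 3 differs between the labels was tested as an interaction, in which 0 members and 0% of all genes were called. At the unadjusted threshold 0 members passed (3.39% of all genes), and DESeq2 called 0 (0.0281%). The interaction was -0.90 for Sema4d and 0.56 for Nrp1 (adjusted p = 0.927 for each) and -0.66 for Sphk1 (adjusted p = 0.968).

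The other genes of each pathway were counted for day 3 against day 0, members left out. The part of the stromal markers in the changes of these genes was not tested. For all of these lists, the share of all tested genes called was 23.7% higher and 26.5% lower under the WT label. Under the KO label it was 20.2% higher and 22.3% lower. Of 12 tested ephrins and Eph receptors, 8 rose under the WT label and 10 under the KO label, none fell, and the median log2 fold change was 2.39 and 2.65. The largest rises under the WT label were those of Epha3 (0.167 ± 0.289 to 3.26 ± 0.674 CPM, log2 fold change 4.16, SE 1.29), Efna4 (0.147 ± 0.143 to 2.47 ± 0.444 CPM, 3.96, SE 0.657) and Epha4 (0.321 ± 0.363 to 2.72 ± 0.569 CPM, 3.03, SE 0.899), all low in level (adjusted p = 0.0155, 0.000267 and 0.0123, edgeR).

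Semaphorins, plexins and neuropilins moved in both directions. Of 26 tested, 13 rose and 6 fell under the WT label, and 12 rose and 5 fell under the KO label, with a median log2 fold change of 0.87 and 0.86. Plxna4, a plexin that pairs with neuropilins, rose from 1.82 ± 0.183 to 118 ± 37.1 CPM in the WT-labelled libraries (log2 fold change 6.01, SE 0.721, adjusted p = 2.621e-05), and from 3.15 ± 1.68 to 58.2 ± 22.8 CPM in the KO-labelled ones. Sema3c (3.56) and Sema3d (3.46) rose from under 1 CPM. Plxnc1 fell by 2.29, Sema4a by 2.21 and Plxnb3, a relative of Plxnb1, by 2.13 under the WT label. Plxnb1 itself was called higher there, though not within the single-hyphen libraries.

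The sphingosine 1-phosphate list fell more often than it rose, with 2 of 12 tested genes higher and 6 lower under the WT label and 2 and 7 under the KO label, and a median of -0.87 and -0.97 on the log2 scale. Spns2, the exporter of sphingosine 1-phosphate, rose from 1.18 ± 0.529 to 70.8 ± 17.6 CPM under the WT label (log2 fold change 5.89, SE 0.483, adjusted p = 2.348e-06) and from 1.38 ± 0.664 to 48.1 ± 14.8 CPM under the KO label (5.11). The receptor gene S1pr3 rose by 2.56 under the WT label, from a widely spread day 0 level (10.04 ± 11.9 CPM, adjusted p = 0.0114, edgeR). Sgpp1, encoding a phosphatase that removes sphingosine 1-phosphate, fell by 1.58, the ceramidase gene Asah1 by 1.36 and the receptor gene S1pr4 by 4.22 under the WT label. The kinase gene Sphk1 and the exporter gene Spns2 were thus both higher on day 3 under both labels.

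Of 23 tested Wnt ligands, receptors and antagonists, 8 rose and 2 fell under the WT label, and 9 and 2 under the KO label (median 1.71 and 1.94 on the log2 scale). Dkk3 (2.99), Fzd2 (2.70) and Fzd8 (2.49) rose the most under the WT label, and the co-receptor genes Lrp6 and Lrp5 fell by 1.39 and by 1.10. Dkk3, Fzd2 and Fzd8 spread widely on WT day 0 (18.1 ± 24.8, 2.94 ± 4.89 and 1.09 ± 1.41 CPM). Their adjusted p was 0.0109, 0.0389 and 0.0062 (edgeR). Of 8 Slit, Robo and srGAP genes, 2 rose and 2 fell under the WT label and 4 rose and 2 fell under the KO label (median 1.69 and 1.97). Srgap3 rose by 4.63 and Slit2 by 1.70, and Slit1 fell by 3.68 and Srgap2 by 1.03 under the WT label. Slit2 also spread widely on WT day 0 (8.14 ± 9.91 CPM, adjusted p = 0.0423 for its rise, edgeR). Of 11 other osteoclast-derived factors, 3 rose and 4 fell under the WT label (4 and 4 under the KO label), with a median of 0.25 and 0.53. Pdgfb, encoding platelet-derived growth factor B, rose by 4.24 (8.21 ± 3.57 to 155 ± 22.2 CPM), Lif by 4.19 and Tnfrsf11a, the RANK gene, by 1.67, whereas Igf1 fell by 2.16, Tgfb1 by 1.31 and Cxcl16 by 1.13.

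**Figure D4:**
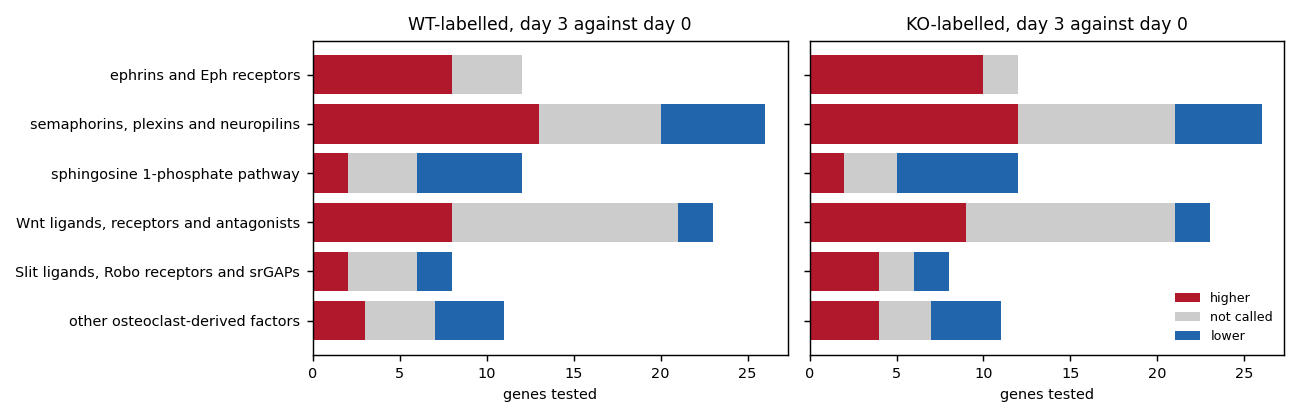
Number of tested genes of each pathway list, members left out, called higher, called lower or not called between day 3 and day 0 of RANKL, under the WT label (left) and the KO label (right). Ephrins and Eph receptors were higher or not called, and the sphingosine 1-phosphate list had 6 and 7 genes called lower.

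Genes whose log2 CPM ran most alike with a member over the 18 libraries are given as a description, since the points share day, label and depth. Ephb4 was most like Ryk, Loxl1 and Fkbp10 (Pearson r of 0.993, 0.993 and 0.992), Efnb2 like Itga11, Sulf1 and Fam20a (0.985, 0.985 and 0.981), and Cthrc1 like Klhl13, Adamts4 and Vcan (0.986, 0.984 and 0.984). Plxnb1 was most like Dlx5, Grb14 and Gm17501 (0.981, 0.980 and 0.977), Sema3a like Actn1 and Lgalsl, among others (0.966 and 0.961), Sphk1 like Vcl, Srpx and Olfml2b (0.977, 0.977 and 0.976) and Wnt10b like Fkbp9, Synm and Podn (0.971, 0.966 and 0.965). Slit3 ran most like Greb1, Wnt5a and Cdh2 (0.944, 0.934 and 0.926). Nrp1 was most like Fcgr2b, Rab3il1 and Trf (0.980 each), and Sema4d, whose nearest genes were Rtn4rl2, Lyar and Lipo1 (0.765, 0.759 and 0.716), had the lowest values of the 10. The members called higher on day 3 than on day 0 under the KO label also ran alike with each other. Their r went from 0.827 (Sema3a and Wnt10b) to 0.964 (Efnb2 and Cthrc1), so counts of members are not counts of independent genes.

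Other cell types were checked with the same table. The sum of 8 neutrophil markers was 662 to 3012 CPM in WT day 0 and 3650 to 11710 CPM in KO day 0 libraries and fell to 35.8 to 66.9 and 97.6 to 1147 CPM on day 3, with 8 of 8 called lower under either label. The sum of 8 endothelial markers lay between 12.0 and 104 CPM in every library, that of 7 B cell markers between 7.59 and 53.6, of 6 T or NK cell markers between 0 and 8.74, of 5 erythroid markers between 8.21 and 41.7 and of 5 megakaryocyte or platelet markers between 25.1 and 380 CPM. Their part in the results was not tested.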

How the data were processed

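RNA of bone marrow-derived macrophages was sequenced in 18 libraries. The authors extracted RNA with a column kit, made libraries with a SMARTer kit and used GRCm38.p4 and StringTie with Ballgown for the deposited FPKM values. The aligner, the counting program and the strand setting are not given in the sources used here. The deposited count columns (whole numbers) were used for every value. The deposited FPKM values rest on 1 length per gene that differs from its merged exon length and were not used.

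The test was edgeR 4.0.16, run in R 4.3.3. Low counts were removed with filterByExpr (14241 genes left), libraries were scaled by TMM, and all 6 groups were fitted together with glmQLFit and glmQLFTest (common dispersion 0.0945). P-values are 2-sided and were adjusted over all tested genes, and calls required an adjusted p below 0.05. The F statistic gave the SE of each log2 fold change. Scaled by total counts alone, the median gene moved by 0.33 (WT) and 0.29 (KO) between days 0 and 3, so changes are relative to the TMM median. Counting error and the spread between libraries set the precision, and PCR copies were not told apart.

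The members and gene lists were chosen with earlier results of these data known. All 10 members were named, up to 3 called genes of each pathway list in each direction (largest change between days 3 and 0 under the WT label, mean above 1 CPM, groups not overlapping) and the 3 genes most correlated with each member, of which 1 is not reported here. Same-numbered KO-labelled libraries deviated together between days 0 and 3 (r of 0.130 to 0.398) and days 1 and 3 (0.156 to 0.340), each r being over 0.1. Every other group pair had at least 1 same-numbered r of 0.095 or less. Single values between days 0 and 1 were larger, with r of 0.054, 0.501 and 0.598 for KO-labelled libraries 1 to 3. WT day 0 library 1 had r of 0.604 with the double-hyphen WT day 1 library numbered 1 and -0.464 with the single-hyphen one. The WT-labelled libraries numbered 2 had r of 0.138. Alternatives were DESeq2 size factors and the DESeq2 1.42.0 Wald test, total counts, other filters, replicate blocks, the title style, an average of the WT day 1 libraries numbered 1, a fit on the compared groups and each library left out. Reads overlapping other genes (all members but Cthrc1 and Wnt10b overlap an annotated gene) were not separated here.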

Additional observations from a re-analysis of the deposited data

How the results depend on the processing

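Of 46 log2 fold changes of members, tried under 855 combinations with an alternative, 758 kept their direction and side of the threshold, 70 lost and 19 gained the call, and 8 reversed. The reversals were in values that had not passed. Slit3 under the WT label between days 3 and 0 became -0.14 in single-hyphen libraries, -0.18 without WT day 0 library 1 and -0.97 without the 3 WT-labelled libraries of lowest stromal sum (chosen after seeing the data). Sema4d under the KO label became 0.24 with total counts, 0.013 in single-hyphen libraries, 0.16 without KO day 3 library 1 and 0.08 without library 3 (-0.49 to 0.16 over the single libraries left out, and -0.18 to 2.71 for Slit3). The Sphk1 interaction became 0.58 without those 3 libraries. The causes were not tested.

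Leaving out 1 library each, the count of members called was 4 to 9 (WT) and 4 to 6 (KO) for day 3 against day 0. The share of all genes called was 40.2% to 53.6% and 31.3% to 36.6%. For day 3 against day 1 the count was 3 to 5 and 0 to 4 (20.1% to 32.8% and 15.8% to 29.8% of all genes). For day 1 against day 0 it was 0 to 1 and 0 to 0 (0% to 12.9% and 0% to 0.0913%). Between the labels it was 0 to 1, 0 to 0 and 0 to 0 on days 0, 1 and 3 (0.105% to 1.38%, 0.0913% to 0.934% and 0.0632% to 0.0913%). It was 0 to 6 averaged over days (0.456% to 10.7%) and 0 to 0 for the interaction (0%). Without the 3 libraries of lowest stromal sum 2 were called for WT day 3 against day 0. At the unadjusted threshold the count was 8 for WT day 3 against day 1, against 31.4% of all genes (8 also with DESeq2, against 36.8%). It was 1 for WT day 1 against day 0 (11.2%), 2 between the labels on day 1 (4.70%) and 4 averaged over days (8.73%). DESeq2 gave 1 averaged over days (6.89%). For KO day 3 against day 1 it was 0 with the title style as a covariate, 0 in single-hyphen libraries and 7 in a fit of the compared groups, which gave 1 between the labels on day 3. For KO day 3 against day 1 the share of all genes called was 19.1% with the title style and 32.5% in the fit of the compared groups. That fit called 0.927% of all genes between the labels on day 3. The title style gave 1 between the labels on day 1 (0.218% of all genes) and 6 averaged over days (9.68%). With the replicate number as a block within the label the counts for day 3 against day 0 were 8 and 8 (WT and KO), against 51.7% and 42.3% of all genes. Ephb4 gained the call under the WT label at 2.58 (adjusted p = 0.0279). For day 3 against day 1 the counts were 4 and 5, against 22.5% and 28.2%. There Nrp1 lost the call under the WT label (adjusted p = 0.0551) and Sema3a gained it under the KO label. For low members such as Wnt10b, with 1 to 20 counts per day 0 library, depth limits the fold changes.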
